A study of Mus musculus with 6 samples.

Results

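Collagens are the main structural proteins of connective tissue, and the genes that encode their chains are described here in olfactory epithelium RNA from OMP-GFP mice. A member was any gene whose symbol has the form of a collagen chain and that at least 1 probe set of the array names alone, and each gene was represented by its probe set of highest mean signal. This gave 42 collagen genes among 18193 genes so named, with 82 probe sets among 45101. The rule used names and mean signals only, not the difference between groups. Of the 42 genes, 33 lay at or above the median probe set in mean log2 signal and were tested, among 11426 genes tested in all. The other 9 were too dim for the test and are given as signals.

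The series has 3 samples from mice homozygous for OMP-GFP and 3 from mice heterozygous for it, each hybridised to 1 Affymetrix mouse expression array. In the widely used OMP-GFP line, a green fluorescent protein reporter stands in place of the coding sequence of Omp, the olfactory marker protein gene. Homozygous mice of that line lack the protein, heterozygous mice keep a working copy, and both groups carry the reporter. No sample without the reporter was analysed here, and the labels used here give no strain, age or sex. They also do not say whether a sample is 1 animal or a pool, so p-values measure the spread between these samples, which may be technical.

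Collagen chains wind around each other into long helices inside the endoplasmic reticulum, are secreted, trimmed and cross-linked, and then assemble outside the cell. Fibrillar collagens form the cables of bone, cartilage and loose connective tissue, other collagens coat those fibrils, and network-forming collagens make basement membranes. In the nose, the olfactory epithelium rests on a basement membrane above a lamina propria of fibroblasts, vessels, glands and axon bundles, and that mucosa lies on bone and cartilage. The arrays measured RNA of the whole dissected tissue, so the place of a transcript within it was not measured, and fewer cells of a type cannot be told apart from less RNA per cell.

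Omp itself separated the libraries by label with 1 exception. Its probe set 1422199_at had signals of 5.7, 8.8 and 31.3 in homozygous samples 1 to 3, against 26.3, 4663.8 and 9143 in heterozygous samples 1 to 3. The library labelled heterozygous 1 therefore had an Omp signal within the homozygous range. A further probe set, 1422200_at, had 7918.5 to 8774.4 in homozygous samples and 7967.8 to 8708.7 in heterozygous samples, and the sources used here do not say where either lies relative to the replaced sequence. The library labelled heterozygous 1 also had a myelin signal above all others: Mbp, a myelin protein gene, had 655.2 to 928.1 in homozygous samples, against 7268.5, 739.7 and 1037.9 in heterozygous samples 1 to 3. Markers of mature olfactory neurons were lowest in heterozygous 3, where their mean log2 deviation was -0.332. Results are therefore given with and without these libraries. The tissue label held for Stoml3, the brightest of the 6 tested markers of mature olfactory neurons. It had 17969.6, 18987.6 and 20030.7 in homozygous samples and 19961.5, 18344.3 and 15125.1 in heterozygous samples. Bone markers were bright too, with Ibsp, the gene of bone sialoprotein, at 12335.4 to 12919.2 in homozygous samples and 12555.1 to 13714.3 in heterozygous samples. These marker genes were chosen for mention after their values were seen.

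Collagen transcripts spanned nearly the whole signal range of the array, and type I collagen was at its top. Member signals ran from 6.4 to 28777.7 over all genes and arrays. On every array, 4 collagens were above the 99th percentile of probe sets (Col1a2, Col1a1, Col3a1 and Col5a2, all fibrillar), and 11 were at or above the 90th percentile. From the 50th percentile upward on every array there were 31 members, and 9 members were at or below it on every array. A signal depends on the probes as well as on the transcript, so this order ranks probe sets, not amounts of RNA between genes.

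**Figure D1:**
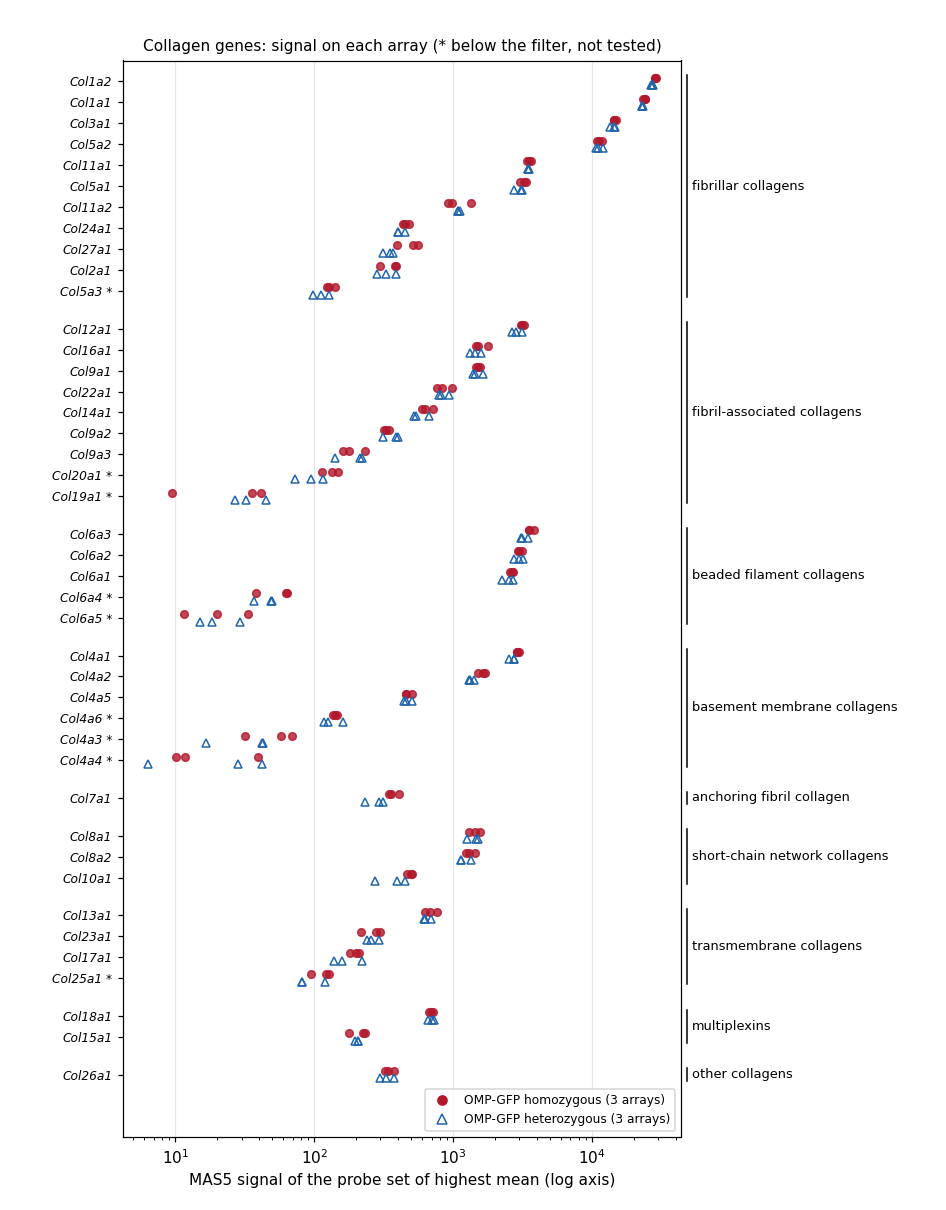
MAS5 signal (log axis) of the probe set of highest mean for each of the 42 collagen genes, grouped by structural class and sorted by mean; each point is 1 array, filled circles are homozygous and open triangles heterozygous samples, and an asterisk marks the 9 genes not tested. Fibrillar collagens hold both the brightest gene, with signals up to 28777.7, and dim ones, and the groups lie close together for most genes.

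No collagen gene differed between homozygous and heterozygous samples past the threshold. With limma and Benjamini-Hochberg adjustment over all genes tested, 0 of 33 collagens had an adjusted p under 0.05, as did 0% of the 11426 genes; the lowest adjusted p was 0.951 among collagens and 0.689 among all genes. Before adjustment, 5 collagens were at p under 0.05 with a higher signal in homozygous samples, where the share of all genes was 2.6%, and 0 were at p under 0.05 with a lower one, where the share of all genes was 2.56%. The differences were small: the median over the 33 collagens was 0.07 on the log2 scale, between -0.14 for Col9a2 and 0.45 for Col27a1, with a median SE of 0.0968. All log2 differences are homozygous minus heterozygous on the log2(signal + 38.8) scale, which understates the change of dim probe sets.

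Most of the small differences pointed the same way, and that count depended on how the arrays were scaled. The difference was above 0 for 30 of 33 collagens, against 49.8% of all genes, but after the log2 values were shifted to a common median it was above 0 for 18 of 33, against 34.6% of all genes. Under quantile normalization it was above 0 for 27 of 33, against 48.5% of all genes. The median difference of the collagens was 0.07 as deposited and 0.03 with a common median, where the median of all genes moved to -0.0427 from a value near 0. Leaving out the library labelled heterozygous 1 gave 31 of 33 above 0, leaving out heterozygous 3 gave 23 of 33, and leaving out both gave 27 of 33. Collagens are not independent of each other, so these counts describe the list and carry no test.

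For 7 of 33 collagens the array signals of each group lay wholly apart, all higher in homozygous samples, where the share of all genes was 4.82%. For 0 of 33 did they separate with the homozygous samples lower, where the share of all genes was 5.51%. The 7 genes were Col27a1, Col10a1, Col7a1, Col4a2, Col6a3, Col4a1 and Col1a2. With a common median the counts were 4 higher and 0 lower, where 2.3% of all genes were higher and 8.38% lower. Col27a1, Col4a2 and Col7a1 were still separate there, joined by Col24a1, while the groups of Col10a1, Col6a3, Col4a1 and Col1a2 overlapped. Without the library labelled heterozygous 1 the count was 15 higher and 0 lower, where 11.7% of all genes were higher and 10.8% lower. Without heterozygous 3 it was 9 higher and 1 lower, where 10.7% of all genes were higher and 14.4% lower. With both left out, which leaves a lone heterozygous sample, it was 20 higher and 2 lower, where 25.6% of all genes were higher and 30.1% lower.

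**Figure D2:**
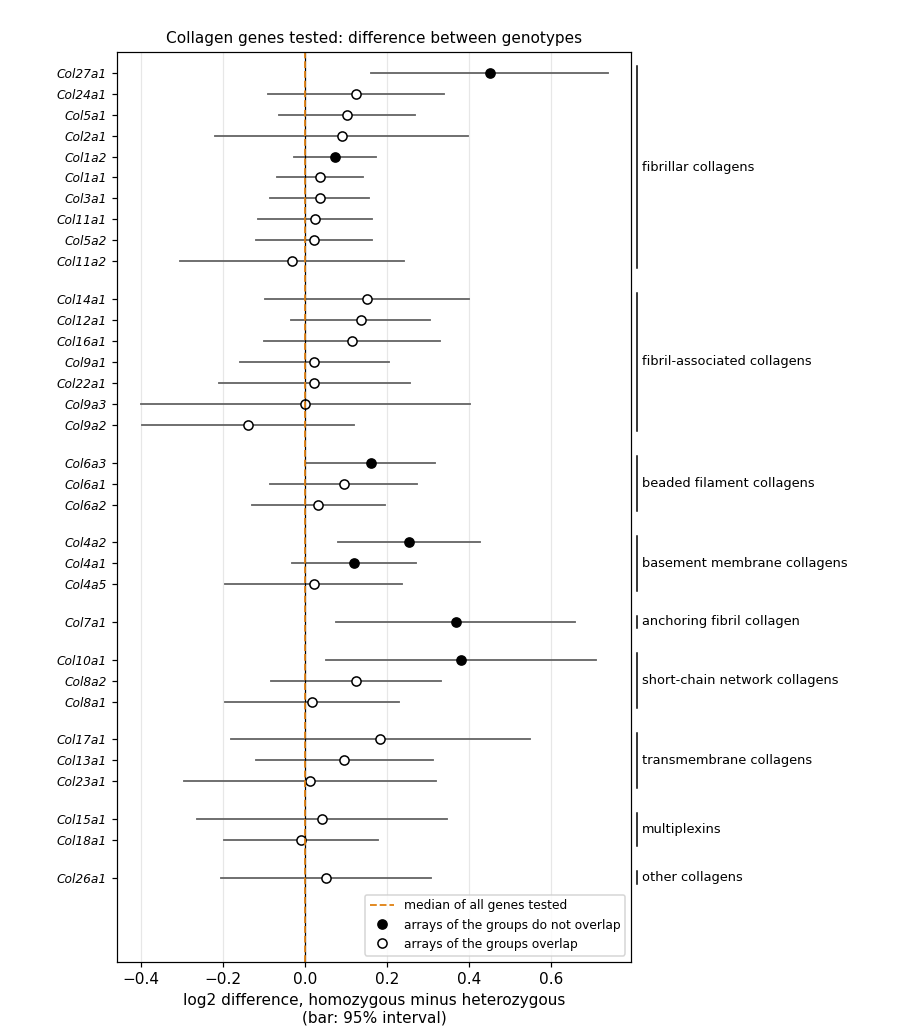
Log2 difference, homozygous minus heterozygous, of the 33 tested collagen genes by structural class; points are estimates from limma, bars are 95% intervals, filled points mark genes whose groups do not overlap, and the dashed line is the median of all genes tested. All but Col11a2, Col9a2 and Col18a1 lie at or above 0, most intervals include 0, and the estimates run from -0.14 for Col9a2 to 0.45 for Col27a1.

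Fibrillar collagens, which form the banded fibrils of bone, cartilage, tendon and stroma, had 11 members, and 10 were tested. The difference was above 0 for 9 of the 10, or 5 of the 10 with a common median, with a median of 0.06, or 0.01 with a common median. At unadjusted p under 0.05 there was 1, Col27a1, where the share of all genes was 2.6%. Col1a2, a chain of type I collagen and the brightest member, had signals of 28189.6, 28777.7 and 28408.2 in homozygous samples, against 26642.4, 27045 and 27480 in heterozygous samples. Its 3 homozygous values were all above its 3 heterozygous values, yet the difference was small, at 0.07 (SE 0.0457, limma adjusted p = 0.951). Col1a1, the partner chain of type I collagen, had 24175.2, 23166.2 and 23953.6 in homozygous samples and 23422, 23098.4 and 22948.6 in heterozygous samples, so its groups overlapped. Col3a1, the chain of type III collagen of soft tissue, had 14303.6, 14396.6 and 14857 in homozygous samples and 14605.6, 14397.4 and 13509 in heterozygous samples. The homozygous values of Col3a1 lay within or just above the heterozygous range. With a common median the difference of Col1a1 turned to -0.00508 and that of Col3a1 to -0.00669.

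Type V and type XI chains sit inside larger fibrils and limit their thickness, and their signals did not separate the groups. Col5a2, of type V collagen, had 11879.9, 11275 and 10911.6 in homozygous samples and 10958, 11998.4 and 10600.4 in heterozygous samples. Col5a1, the other type V chain measured here above the filter, had 3336, 3256.9 and 3011.2 in homozygous samples and 3115.5, 2766.1 and 3063.8 in heterozygous samples. Both genes overlapped between groups, with differences of 0.02 for Col5a2 and 0.10 for Col5a1, and that of Col5a2 turned to -0.0195 with a common median. Col11a1, of the type XI collagen known from cartilage, had 3632.9, 3414.2 and 3543.1 in homozygous samples and 3456.2, 3452.1 and 3496.3 in heterozygous samples, again overlapping. The related chains Col11a2 and Col2a1, the main chain of cartilage fibrils, were dimmer and overlapped, as did Col24a1, and Col5a3 was below the filter with a mean signal of 121.8.

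Col27a1, a fibrillar collagen known from cartilage and its transition to bone, had the largest difference of all tested collagens. Its probe set, 1453191_at, had signals of 392.9, 512.9 and 555.5 in homozygous samples, against 350.6, 368 and 312.1 in heterozygous samples. The lowest homozygous sample, replicate 1, stood close to the heterozygous values and the other 2 well above them. The means were 487.1 ± 84.3 in homozygous and 343.6 ± 28.6 in heterozygous samples (SD, n = 3 arrays each), and the difference was 0.45 (SE 0.131, 95% interval 0.161 to 0.738). The unadjusted p from limma was 0.00564 and the adjusted p was 0.951. Leaving out 1 array at a time gave 0.355 to 0.585.

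Basement membrane collagens, the type IV chains that form the sheet under epithelia and around vessels, had 6 members, of which Col4a1, Col4a2 and Col4a5 were tested. All 3 had differences above 0, or 2 of 3 with a common median, and their median was 0.12. Col4a2 (1424051_at) had 1710.3, 1629.6 and 1511.9 in homozygous samples, against 1405.7, 1331.9 and 1311.6 in heterozygous samples. The lowest homozygous value was above the highest heterozygous one, with means of 1617 ± 99.8 in homozygous and 1350 ± 49.5 in heterozygous samples (SD, n = 3 arrays each). Its difference was 0.25 (SE 0.0783, 95% interval 0.0805 to 0.426), with an unadjusted p of 0.00806 and an adjusted p of 0.951 from limma, and it stayed between 0.213 and 0.3 with any 1 array left out. Col4a1, whose chain assembles with that of Col4a2, had 2905.1, 2879.8 and 2991.2 in homozygous samples, against 2767.2, 2765.6 and 2537.7 in heterozygous samples. Every homozygous value of Col4a1 exceeded every heterozygous one, at a difference of 0.12 (SE 0.0686, limma adjusted p = 0.951), which was 0.0793 without heterozygous 3. Col4a3 and Col4a4, chains known from kidney basement membranes, and Col4a6 were below the filter, with mean signals of 43.43 for Col4a3, 23.03 for Col4a4 and 138.1 for Col4a6.

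Col4a1 and Col4a2 lie head to head in the genome, and both were among the 7 genes whose groups did not overlap as deposited, though with a common median those of Col4a1 overlapped. Their start sites are at 11312826 for Col4a1 and 11312805 for Col4a2, on opposite strands in the RefSeq annotation of GRCm38.p6. They are 21 bases apart, and each lies downstream of the start of the other gene. The promoter windows, each with 250 bases before the start and 50 after it, share 78 bases. None of the shared bases lies before both starts. The windows of this pair are shown because they share sequence, together with those of Col1a2, the brightest member, and Col10a1, which has a TATA box near its start. They are RefSeq sequences, written from 5′ to 3′ on the strand of the gene, with capitals marking matches on either strand to the motif CCAAT, the motif TATAAA or the motif GGGCGG.
Col4a1, chr8:11312777-11313076, strand -: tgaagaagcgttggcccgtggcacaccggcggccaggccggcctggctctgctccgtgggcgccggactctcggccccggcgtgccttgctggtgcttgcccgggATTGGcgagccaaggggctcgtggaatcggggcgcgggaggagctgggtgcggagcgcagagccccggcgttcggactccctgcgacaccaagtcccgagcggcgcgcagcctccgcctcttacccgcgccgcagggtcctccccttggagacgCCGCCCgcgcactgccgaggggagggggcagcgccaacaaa
Col4a2, chr8:11312555-11312854, strand +: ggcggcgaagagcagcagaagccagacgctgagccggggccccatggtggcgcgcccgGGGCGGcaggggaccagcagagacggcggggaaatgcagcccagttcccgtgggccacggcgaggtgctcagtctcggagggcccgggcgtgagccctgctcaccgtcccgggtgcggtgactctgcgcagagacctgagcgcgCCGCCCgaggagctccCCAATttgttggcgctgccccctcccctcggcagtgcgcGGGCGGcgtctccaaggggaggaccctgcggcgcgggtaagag
Col1a2, chr6:4505368-4505667, strand +: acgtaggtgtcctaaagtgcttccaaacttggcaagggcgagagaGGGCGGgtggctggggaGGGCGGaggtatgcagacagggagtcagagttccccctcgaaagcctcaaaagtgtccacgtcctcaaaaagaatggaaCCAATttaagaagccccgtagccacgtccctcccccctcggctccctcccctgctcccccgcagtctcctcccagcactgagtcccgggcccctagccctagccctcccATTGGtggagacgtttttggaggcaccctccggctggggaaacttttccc
Col10a1, chr10:34389731-34390030, strand +: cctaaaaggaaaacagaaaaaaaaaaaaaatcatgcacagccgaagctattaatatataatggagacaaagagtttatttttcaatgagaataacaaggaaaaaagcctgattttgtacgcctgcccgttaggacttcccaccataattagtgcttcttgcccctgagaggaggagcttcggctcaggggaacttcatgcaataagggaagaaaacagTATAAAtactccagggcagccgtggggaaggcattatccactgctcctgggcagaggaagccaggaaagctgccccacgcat

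The shared stretch of Col4a1 and Col4a2 holds a GGGCGG match that both windows show, as CCGCCC in that of Col4a1. This match lies after both starts, from base 10 in the window of Col4a1 and base 8 in that of Col4a2, counted from the start. The CCAAT match of Col4a2 begins 32 bases before its start, and that of Col1a2 on the gene strand begins 109 bases before its start. The TATAAA match of Col10a1 begins 32 bases before its start. Windows were found for 33 of the 42 collagen genes, 36 windows in all. Among these, 13 of 36 held CCAAT, against 37.4% of 32851 promoter windows of the same length, and 5 held TATAAA, against 13.6%. GGGCGG was in 22 of 36, against 35.7% of all windows, and TGTGGT, a core motif of RUNX factors, was in 3, against 16.8%. No motif contains another, both strands were searched, and a match is a description of the sequence only.

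Beaded filament collagens, the type VI chains that make microfibrils around cells, had 5 members, and 3 were tested, all with differences above 0, or 2 of 3 with a common median, and a median of 0.09. Col6a3 (1424131_at) had 3528.2, 3797.3 and 3541.4 in homozygous samples, against 3469.1, 3102.3 and 3147.7 in heterozygous samples. The library labelled heterozygous 1 lay just under the lowest homozygous value, so the groups of Col6a3 separated by a small margin. Its difference was 0.16 (SE 0.0714, 95% interval 0.00292 to 0.317), with a limma unadjusted p of 0.0466 and an adjusted p of 0.951. Col6a2, which pairs with Col6a1 and Col6a3 in the same molecule, had 3002.5, 3134.9 and 2945.9 in homozygous samples and 3168.9, 2968.9 and 2753.4 in heterozygous samples. Col6a2 overlapped fully, at 0.03, and turned to -0.00998 with a common median. Col6a1 overlapped too, with 2575.2 to 2711.3 in homozygous samples and 2235.4 to 2704 in heterozygous samples. Col6a4 and Col6a5 were below the filter, at mean signals of 49.8 and 21.28.

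Anchoring fibril collagen, Col7a1 (1419613_at), which ties the basement membrane of stratified epithelia to the connective tissue under it, had 344.7, 410.5 and 354.8 in homozygous samples, against 314.7, 293.4 and 230.5 in heterozygous samples. All homozygous values were above all heterozygous values, and heterozygous 3 was the lowest. The means were 370.0 ± 35.4 in homozygous and 279.5 ± 43.8 in heterozygous samples (SD, n = 3 arrays each), a difference of 0.37 (SE 0.132, 95% interval 0.0768 to 0.657). The unadjusted p from limma was 0.0178 and the adjusted p was 0.951. The difference was 0.251 if heterozygous 3 was left out and 0.447 if the library labelled heterozygous 1 was.

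Short-chain network collagens comprise Col8a1 and Col8a2, known from vessel walls and the cornea, and Col10a1, the collagen of hypertrophic cartilage at sites of bone formation. Col10a1 (1422253_at) had 463.1, 502.3 and 494.1 in homozygous samples, against 392.3, 449 and 273.2 in heterozygous samples. Its homozygous values were tightly grouped and its heterozygous values widely spread, with heterozygous 3 far below the others. The means were 486.5 ± 20.7 in homozygous and 371.5 ± 89.7 in heterozygous samples (SD, n = 3 arrays each), and the difference was 0.38 (SE 0.149, 95% interval 0.0516 to 0.709, limma unadjusted p = 0.0272, adjusted p = 0.951). Without heterozygous 3 the difference was 0.195, and without both it and the library labelled heterozygous 1 it was 0.106. Col8a1, the brightest of this class, had 1302.3, 1558.5 and 1426.7 in homozygous samples and 1460.9, 1515.8 and 1259 in heterozygous samples. Its groups overlapped at 0.02, which turned to -0.0245 with a common median, and Col8a2 overlapped as well, at 1234.1 to 1426.4 in homozygous samples and 1135.2 to 1356.8 in heterozygous samples.

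**Figure D3:**
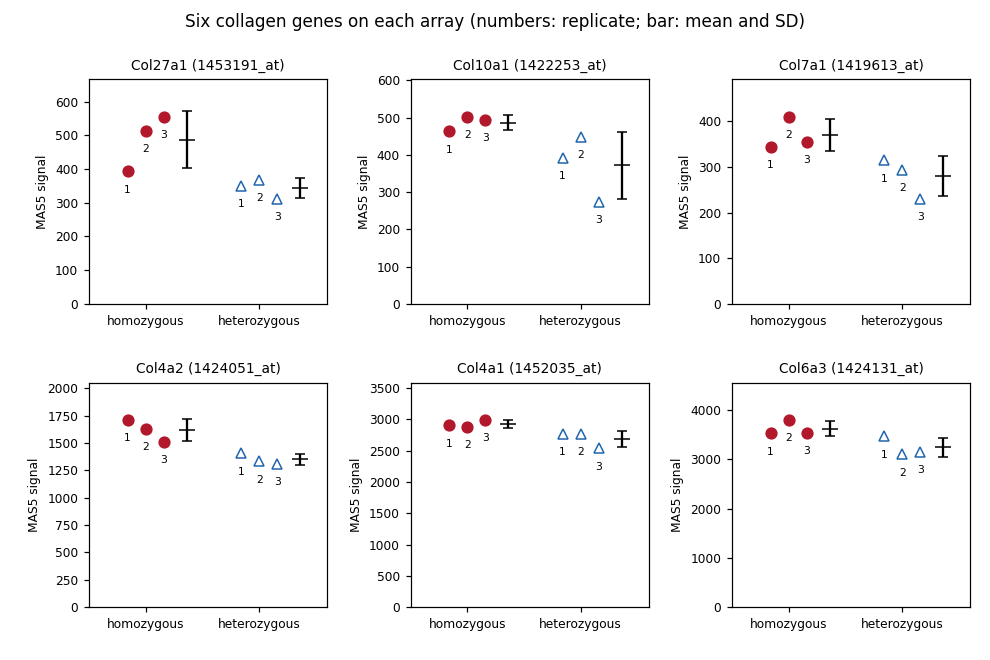
MAS5 signal of Col27a1, Col10a1, Col7a1, Col4a2, Col4a1 and Col6a3 on each array, on axes from 0; filled circles are homozygous and open triangles heterozygous samples with their replicate number, and the bars beside them are mean and SD (n = 3 arrays a group). All homozygous points lie above all heterozygous points in each panel on the deposited scale, which with a common median held for Col27a1, Col7a1 and Col4a2 of the 6, and the heterozygous 3 point of Col10a1, at 273.2, lies far below the others.

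Fibril-associated collagens, which coat fibrils and link them to other matrix, had 9 members, and none of the 7 tested separated the groups in its brightest probe set, with a median difference of 0.02, or -0.02 with a common median, and 0 at unadjusted p under 0.05. Col12a1, found on type I fibrils of dense connective tissue, had 3108.8, 3260.1 and 3075.1 in homozygous samples and 3120, 2644.4 and 2838 in heterozygous samples. The library labelled heterozygous 1 lay among the homozygous values of Col12a1, and the difference of 0.14 was 0.197 without that library and 0.0797 without heterozygous 2. Col14a1, a close relative, had 627.4, 716.3 and 601.7 in homozygous samples and 675.7, 525.1 and 544.5 in heterozygous samples. Here too the library labelled heterozygous 1 was among the homozygous values, and the difference of 0.15 was 0.257 without it, 0.0867 without heterozygous 2 and 0.082 without homozygous 2. The type IX chains of cartilage, Col9a1, Col9a2 and Col9a3, overlapped between groups, and Col9a2 had the most negative difference of any tested collagen, at -0.14 (SE 0.117, limma adjusted p = 0.951), and was chosen for mention after its values were seen. Its signals were 326.8, 344.3 and 316.1 in homozygous samples and 388.6, 400.9 and 313.9 in heterozygous samples. Col19a1 and Col20a1 were below the filter, at mean signals of 31.85 and 113.4.

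Transmembrane collagens, which are anchored in the cell membrane, overlapped between groups in the brightest probe set of all 3 tested members. Col13a1, a collagen of adhesion sites, had 760.6, 626.4 and 684.7 in homozygous samples and 688.5, 624.5 and 614 in heterozygous samples. Col17a1, the hemidesmosome collagen of basal epithelial cells, had 211.8, 200.6 and 182.4 in homozygous samples and 219.5, 158.8 and 138.7 in heterozygous samples. Its spread was wider than its difference of 0.18 (SE 0.165), which came to 0.0676 if heterozygous 3 was left out and to 0.338 if the library labelled heterozygous 1 was. Col25a1, best known from neurons, was below the filter with a mean signal of 104.6.

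Multiplexins, the collagens of basement membrane zones that carry long sugar chains, also overlapped between groups. Col18a1, whose end fragment is endostatin, had 721.1, 688.7 and 673.7 in homozygous samples and 732.6, 702.2 and 663.6 in heterozygous samples. Col15a1 had 224.3, 178.1 and 232.4 in homozygous samples and 205.5, 208.3 and 196.1 in heterozygous samples. Neither gene had a difference beyond its SE, at -0.0092 (SE 0.0846) for Col18a1 and 0.04 (SE 0.138) for Col15a1, and that of Col15a1 turned to -0.000194 with a common median. Col26a1 is not a multiplexin and was listed apart, under other collagens. Its signals were 376.2, 324.3 and 340.8 in homozygous samples and 373.7, 328.9 and 299.8 in heterozygous samples, with near-equal ranges.

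Collagen signals varied within a group about as much as those of other genes. The median within-group SD of the 33 collagens was 0.111 on the log2 scale, between 0.019 and 0.263, against a median of 0.12 for all genes. Among genes in the brightest 25% of those tested, 11 collagens had a median SD of 0.0742, against 0.0918 for all genes. The 11 bright collagens all had differences above 0 as deposited, with a median of 0.07, where the share above 0 was 43.8% of all bright genes. Of the 22 dimmer collagens, 19 had differences above 0 as deposited, against 51.9% of all dimmer genes. With a common median, the bright members Col1a1, Col3a1, Col5a2, Col11a1 and Col6a2 turned below 0. Of all 33 collagens, 18 were above 0 on that scale, against 34.6% of all genes.

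Genes with several probe sets allowed the direction to be read again on other probes of the same transcript, though on the same RNA. Of the 82 collagen probe sets, 53 were tested and 0 passed an adjusted p of 0.05 in limma, as did 0% of the 22514 probe sets tested. For 11 of the 53, all homozygous signals exceeded all heterozygous signals, where the share of all probe sets was 5.93%, and for 0 the reverse held, where the share of all probe sets was 5.01%. For 17 genes there were several tested probe sets, and in 14 of these all differences had the same sign as deposited. The share of all genes whose probe sets had the same sign is not given here. With a common median the sign turned for the brightest probe set of Col8a1 and not for 1418440_at, so agreement depended on the scaling. As deposited, signs differed for Col1a1, Col5a1 and Col18a1. For Col1a1, probe set 1455494_at had -0.10 where the brighter 1423669_at had 0.04. For Col5a1, 1416741_at had -0.00542 where 1416740_at had 0.10 and 1434479_at had 0.03, and for Col18a1, 1418237_s_at had 0.12 where 1426955_at had -0.0092.

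The largest spread between probe sets was that of Col1a2, which was chosen for mention after its values were seen. Probe set 1446326_at had 857.4, 689.8 and 582.4 in homozygous samples, against 362.3, 258 and 521.3 in heterozygous samples. These groups did not overlap, but the lowest homozygous value, 582.4, stood near the highest heterozygous one, 521.3. The probe set had a difference of 0.87 (SE 0.207), with a limma unadjusted p of 0.00162 and an adjusted p of 0.859. Its signal was far below those of the other Col1a2 probe sets, 1450857_a_at and 1423110_at, whose differences were 0.07 and 0.05. The groups of 1423110_at overlapped, with 24795.9 to 26246.9 in homozygous samples and 23917.6 to 26198.4 in heterozygous samples. The mean of the 3 probe sets gave Col1a2 a difference of 0.331, and the sources used here do not say which part of the gene 1446326_at covers. Leaving out 1 array at a time gave 0.643 to 1.1 for 1446326_at, all short of the threshold. Without both the library labelled heterozygous 1 and heterozygous 3 it had 1.32 with a limma adjusted p of 0.0388, where its adjusted p over all alternatives ran from 0.0388 to 1, in a fit where heterozygous 2 stands alone and is assumed to vary like the others. Probe sets of lower signal, also chosen after their values were seen, had differences of 0.24 for Col4a1 (1426348_at), 0.29 for Col27a1 (1429549_at) and 0.26 for Col8a1 (1418440_at).

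The dimmer probe set of Col4a1 had 1080.8, 1044.1 and 940.4 in homozygous samples and 986.8, 816.4 and 789.2 in heterozygous samples, so its groups overlapped where those of the brighter probe set did not. The dimmer probe set of Col27a1 had 183.1, 247.5 and 182.1 in homozygous samples and 145, 126.5 and 211.5 in heterozygous samples, also overlapping. The dimmer tested probe set of Col8a1 had 958.8, 941.5 and 977.8 in homozygous samples and 783.7, 928.4 and 682 in heterozygous samples. It separated the groups, unlike the brighter probe set of Col8a1, and its difference was 0.162 without heterozygous 3. The dimmer tested probe set of Col12a1 (1427391_a_at) also separated the groups, with 1586.1, 1434.2 and 1510.7 in homozygous samples, against 1314.6, 1266.1 and 1256.2 in heterozygous samples. That of Col23a1 (1429209_at) did so by a small margin, with 269.5, 233.3 and 229.5 in homozygous samples, against 220.1, 213.5 and 195.5 in heterozygous samples. Their differences were 0.23 (SE 0.077, limma unadjusted p = 0.0121, adjusted p = 0.859) for Col12a1 and 0.19 (SE 0.127, adjusted p = 0.909) for Col23a1, both chosen for mention after their values were seen.

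**Figure D4:**
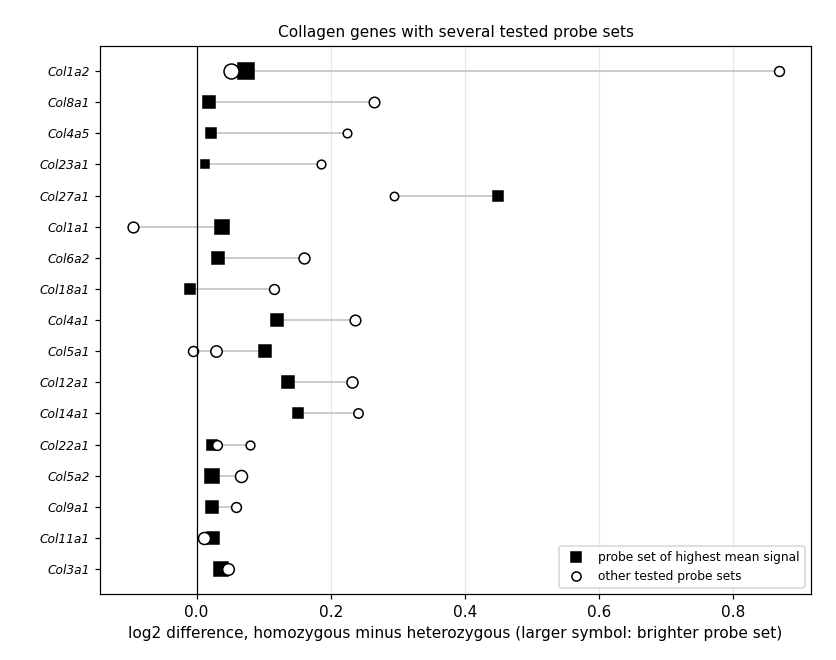
Log2 difference, homozygous minus heterozygous, of every tested probe set of the 17 collagen genes with several; squares are the probe set of highest mean signal, open circles the others, and larger symbols are brighter. In 14 genes all probe sets lie on the same side of 0 on the deposited scale, and a dim probe set of Col1a2 at 0.87 lies far from the 2 bright ones.

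The genes that make, process, bind or degrade collagen did not pass the threshold either. Of 63 listed genes, 58 were on the array and 47 were tested, and 0 had a limma adjusted p under 0.05. The difference was above 0 for 32 of 47, against 49.8% of all genes, with a median of 0.05. With a common median it was above 0 for 25 of 47, against 34.6% of all genes, with a median of 0.01. At unadjusted p under 0.05, 3 had a higher signal in homozygous samples, where the share of all genes was 2.6%, and 1 a lower one, where it was 2.56%. The groups did not overlap for 6 of 47, all higher in homozygous samples, where the share of all genes was 4.82%. With a common median the counts were 4 higher and 1 lower, where 2.3% of all genes were higher and 8.38% lower. Collagen-binding proteoglycans and matrix proteins had 9 of 10 above 0, a median of 0.12 and 4 whose groups did not overlap. With a common median 9 of 10 were above 0, the median was 0.07 and 2 did not overlap, higher in homozygous samples, where the share of all genes was 2.3%.

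Thbs1, the gene of thrombospondin 1, had 920.9, 819 and 908.9 in homozygous samples, against 737.2, 740.6 and 625.1 in heterozygous samples. Bgn, the gene of the fibril-binding proteoglycan biglycan, had 5800.3, 5486 and 5309.9 in homozygous samples, against 5161.9, 4640.4 and 5041.3 in heterozygous samples. Both separated the groups, at 0.32 (SE 0.0954) for Thbs1 and 0.16 (SE 0.0677) for Bgn, with limma adjusted p-values of 0.951. Sparc, the gene of osteonectin, a collagen-binding protein abundant in bone, had 25748.1, 24658.7 and 24778 in homozygous samples and 23801.2, 24094 and 23550.8 in heterozygous samples. Its groups did not overlap, at a small difference of 0.07, much as for Col1a2, and the mean of its probe sets gave -0.00299. Dcn, the gene of decorin, overlapped at 0.14 and was at -0.00129 without the library labelled heterozygous 1 and heterozygous 3.

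The enzymes and chaperones that fold and modify collagen in the endoplasmic reticulum had 11 of 16 differences above 0, or 8 of 16 with a common median, and a median of 0.04. Plod1, a lysyl hydroxylase, was at 0.21 (SE 0.0984), with 407.2 to 462.8 in homozygous samples and 363.8 to 373 in heterozygous samples, which did not overlap. P3h1, a prolyl hydroxylase, was at 0.19 (SE 0.116) with overlapping groups. The bright members P4hb, a subunit of prolyl hydroxylase, and Ppib, a prolyl isomerase, were at 0.03 and 0.00153, and both were below 0 with a common median, at -0.0168 and -0.0407. Processing and cross-linking genes had 4 of 7 above 0, or 2 of 7 with a common median, and a median of 0.00541, with 0.15 for lysyl oxidase Lox, 0.11 for Loxl1, which was 0.0431 without heterozygous 3, 0.00541 for the proteinase enhancer Pcolce and 0.04 for Pcolce2. Pcolce and Pcolce2 also turned, to -0.0369 for Pcolce and -0.00702 for Pcolce2, with a common median.

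Collagen receptors had 2 of 4 above 0. Ddr1, a receptor kinase for collagen on epithelial cells, had 3819.3, 3556.9 and 4026 in homozygous samples, against 4866.5, 3753.1 and 5116 in heterozygous samples. Its groups overlapped through heterozygous 2, and its difference of -0.26 (SE 0.107, limma adjusted p = 0.951) was 0.0162 without the library labelled heterozygous 1 and heterozygous 3. Itgb1, the common chain of the collagen-binding integrins, was at 0.14. Among degradation genes, 6 of 10 were above 0, or 4 of 10 with a common median, with a median of 0.02. Fap, a fibroblast surface protease, had 3780.8, 3706.2 and 3662.1 in homozygous samples, against 2909, 3479.5 and 3209.5 in heterozygous samples, and its groups did not overlap. Its difference was 0.22 (SE 0.0762, limma adjusted p = 0.951), while the bone-resorption protease Ctsk was at 0.06 and the collagenases Mmp14 and Mmp13 were at 0.10 and -0.03.

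The differences in collagen signal came with an uneven spread over the arrays. Of the 33 collagens, the lowest signal fell on heterozygous 3 for 19, against 27.5% of all genes, and on heterozygous 2 for 6, against 14.7%. The highest signal fell on homozygous 1 for 10, against 14.8% of all genes, on homozygous 2 for 11, against 14.3%, and on homozygous 3 for 6, against 12.2%. It fell on the library labelled heterozygous 1 for 4, against 21.4% of all genes, on heterozygous 2 for 2, against 18.1%, and on heterozygous 3 for 0, against 19.1%. The mean log2 deviation of the collagens from their mean over arrays was 0.07, 0.05 and 0.03 in homozygous samples, against 0.02, -0.06 and -0.11 in heterozygous samples. The library labelled heterozygous 1 thus lay nearest to the homozygous samples in collagen level, and heterozygous 3 farthest.

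Markers of connective tissue cells moved with the collagens on heterozygous 3 only in part. Their mean deviation there was -0.24 for the 3 tested fibroblast markers of 6 on the array, -0.20 for the 3 tested chondrocyte markers of 8, and -0.21 for the 5 pericyte and smooth muscle markers. It was 0.05 for the 7 osteoblast and osteocyte markers, whose summed signal was 28100 to 29740 in homozygous samples and 26890 to 31560 in heterozygous samples. Among the fibroblast markers, only Mfap5 was low on heterozygous 3, at 105.6 against 209 to 234.1 on the other arrays. Pdgfra, at 1189.7, and Fbln1, at 902.2, lay within their values on the other arrays. Among the chondrocyte markers, Acan and Cnmd were lowest on heterozygous 3, and Sox9, at 307.5, was not. Tagln, Acta2 and Myh11 were lowest there, and Rgs5 and Pdgfrb were not. Summed fibroblast markers were 2416 to 2706 in homozygous samples and 2350 to 2586 in heterozygous samples, so the ranges overlapped. Summed chondrocyte markers were 1064 to 1098 in homozygous samples and 983.6 to 1065 in heterozygous samples, with Acan, Sox9 and Cnmd above the filter and Comp, Hapln1, Snorc, Matn1 and Matn3 below it. The summed mature neuron markers were 52730 to 56650 in homozygous samples and 43000 to 58190 in heterozygous samples, with the lowest on heterozygous 3. The part of any of these cell types in the collagen differences was not tested.

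Endothelial markers had higher summed signals in every homozygous sample, and basement membrane collagens are also known from vessel walls. All 4 tested of the 6 on the array had differences above 0, and 3 did not overlap between groups, where the share of all genes was 4.82%. With a common median 1 of the 4 did not overlap, where the share of all genes that were higher was 2.3%. Under quantile normalization it was also 1 of the 4, where that share was 4.43%. Their summed signal was 1377 to 1436 in homozygous samples, against 1012 to 1190 in heterozygous samples. Kdr, a receptor of vascular growth factor, had 314.7, 304.4 and 269.7 in homozygous samples, against 182, 201.9 and 243.6 in heterozygous samples. The difference of Kdr was 0.44 (SE 0.135, limma adjusted p = 0.951). Tendon markers did not move together. Tnmd, the only tested of 3, had 356.8, 439.9 and 356.5 in homozygous samples, against 305.4, 207.5 and 233.1 in heterozygous samples. Scx, below the filter, was lower in homozygous samples, with 55.5, 36.4 and 30.8, against 83.5, 89.3 and 84.4 in heterozygous samples, and Mkx, also below the filter, overlapped at 35.8 to 53.6 in homozygous and 42.8 to 61.4 in heterozygous samples. Schwann cell and ensheathing glia markers ran apart from the collagens. Their mean deviation was 1.18 in the library labelled heterozygous 1 and -0.01 to -0.40 elsewhere. In that library Mbp, at 7268.5, and Pmp22, at 4898.6, were far above all others. Sox10, at 444.6, lay among its other values there, and S100b, at 425.7, was just above its next highest value, 418.2. Kdr and the tendon markers were chosen for mention after their values were seen, and the part of these cells in the collagen differences was not tested.

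**Figure D5:**
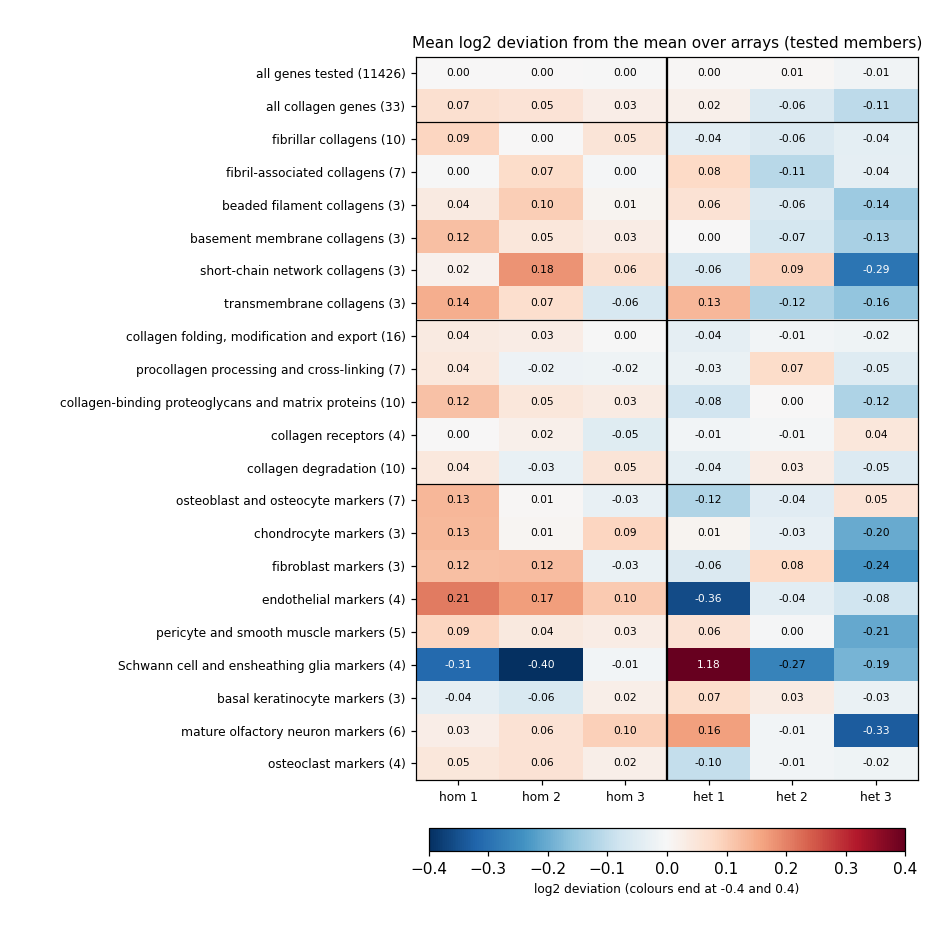
Mean log2 deviation from the mean over the 6 arrays for the tested members of each collagen class, collagen pathway list and cell type marker list; columns are arrays, homozygous left of heterozygous, and colours end at -0.4 and 0.4. The 33 collagens run between 0.07 on homozygous 1 and -0.11 on heterozygous 3. The mean of the glial markers reaches 1.18 on the library labelled heterozygous 1, where Mbp and Pmp22 are far above their other values and Sox10 and S100b are not.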

How the data were processed

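Total RNA of olfactory epithelium was labelled with biotin in 1 cycle and hybridised to 6 arrays, per the labels' protocols. The authors deposited 1 linear intensity for each probe set, made with MAS5, per the submitters' processing notes. The MAS5 version and its settings were not given in those notes as used here. Their 2% trimmed mean was 500 on every array and their medians were 147.9 to 163.7, so no further scaling was done. Detection calls were not used here. Precision is limited by the number of arrays.

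Gene names are those of the platform annotation, in which 34945 probe sets carry 1 gene name, 932 carry several and 9224 carry none; 0 symbols needed updating against RefSeq. An offset of 38.8, the 25th percentile of the pooled signals, was added before taking log2. The 64 control probe sets were left out. Genes with a mean log2 value at or above the median probe set were compared with limma 3.58.1 in R 4.3.3 (lmFit, eBayes with intensity trend, Benjamini-Hochberg at 0.05), with 4 residual and 6.96 prior degrees of freedom and a median SE of 0.101. Probe sets were fitted the same way.

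Values on every array are given for the 10 brightest collagens, for the brightest and most different collagen of each structural class, for those at unadjusted p under 0.05 or with separate groups and a difference of at least 0.3, and, as values or differences, for the 2 genes of lowest p and the 2 brightest of each pathway list. The members and lists were chosen with earlier results of these data known. Alternatives changed the offset, scaling, filter, variance model, probe set rule, threshold and replicate block, and left out each array. Except under other filters and probe set rules, the genes tested were kept. The script was tested on simulated data.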

Additional observations from a re-analysis of the deposited data

How the results depend on the processing

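No collagen or pathway gene passed an adjusted p of 0.05 in limma under any of the 18 alternatives run. Over all genes, 0 passed as reported, 0 to 1 when an array was left out, with the 1 without the library labelled heterozygous 1, and 9 without that library and heterozygous 3 together, a setting added once the values had been seen. Among the collagens and pathway genes named and their probe sets, 840 of 888 values had the reported direction, and 1 passed the threshold: 1446326_at of Col1a2, at 1.32 without the library labelled heterozygous 1 and heterozygous 3. Other filters, variance models and thresholds and the replicate block cannot change a difference, so their part of the 888 was fixed in advance. The median difference of the collagens was 0.0306 with a common median and 0.0665 to 0.0975 over the arrays left out. The median signals of the arrays differ, and the cause of the values below was not tested. With a common median, the sign turned for Col11a1 (-0.0175), Col15a1 (-0.000194), Col1a1 (-0.00508), Col3a1 (-0.00669), Col5a2 (-0.0195), Col6a2 (-0.00998), Col8a1 (-0.0245), P4hb (-0.0168), Pcolce (-0.0369), Pcolce2 (-0.00702), Ppib (-0.0407) and 1434479_at of Col5a1 (-0.0136). With the mean of all probe sets, it turned for Col18a1 (0.0533), Col1a1 (-0.0292) and Sparc (-0.00299), and Col1a2 reached 0.331. Without heterozygous 1 and 3, it turned for Col5a2 (-0.0801), Col8a1 (-0.0864), Dcn (-0.00129), Ddr1 (0.0162), Itgb1 (-0.00196), Mmp14 (-0.000248), P4hb (-0.0327), Pcolce2 (-0.0327), Ppib (-0.0909) and 1455494_at of Col1a1 (0.0412). Over the arrays left out, the sign turned for Col15a1 (-0.0189 to 0.142), Col18a1 (-0.0446 to 0.023), Col26a1 (-0.0155 to 0.127), Col5a2 (-0.0149 to 0.0742), Col6a2 (-0.019 to 0.0811), Col8a1 (-0.0605 to 0.0811), Mmp13 (-0.148 to 0.0618), Pcolce (-0.0395 to 0.066), Pcolce2 (-0.03 to 0.0692), Ppib (-0.0261 to 0.0478), 1416741_at (-0.106 to 0.0548) and 1434479_at of Col5a1 (-0.00121 to 0.079). The sign held but the value moved by over 1.5 times for Col10a1 (0.195 to 0.518), Col13a1 (0.0281 to 0.161), Col17a1 (0.0676 to 0.338), Col5a1 (0.0493 to 0.145), Dcn (0.0731 to 0.215), Ddr1 (-0.391 to -0.17), Loxl1 (0.0431 to 0.167) and P3h1 (0.115 to 0.32), among others. Replicate numbers are shared by the groups but the labels pair nothing, and the correlations across genes of same-numbered samples were 0.0106, -0.107 and -0.0871. With the replicate number as a block, 0 collagens and 0 of all genes passed, and 4 collagens were at limma unadjusted p under 0.05 against 5 without it. The median difference stayed at 0.0729, which a block holding 1 array of each group cannot change. Collagens at unadjusted p under 0.05 numbered 2 without homozygous 2, 3 without homozygous 3, 2 without heterozygous 3, 3 with a common median, 8 with the mean of all probe sets, and 2 with a filter at the 75th percentile, which left 21 collagens and gave the dimmest no value. The share of all genes at that p is given only for the main fit, at 2.6% higher and 2.56% lower in homozygous samples. The counts under other settings, the block included, therefore have no background beside them and are not read as changes in the collagens. With 3 arrays a group, most collagen differences lie near or under their SE, so a p that misses the threshold does not show that the collagens were equal.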
